A study of Rattus norvegicus with 8 samples.

Results

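Pre-mRNA splicing genes were followed in neurons captured by laser from area CA3 of the hippocampus of rats. The genes taken were those whose name on the array starts with Sfrs, Srsf, Hnrp, Hnrnp, Snrp, Sf3a, Sf3b or Prpf, which gave 51 of 35561 gene names, read by 87 of 41012 probes. Names are those of the array's design, in which Sfrs stands for the genes now mostly called Srsf and Hnrp for Hnrnp. The choice rests on names alone.

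Splicing removes introns from nascent transcripts and is carried out by the spliceosome, which assembles anew on each intron. Small nuclear ribonucleoproteins (snRNPs) recognise the splice sites, and Sm proteins form a ring around their RNA. The SF3A and SF3B complexes belong to the U2 snRNP and hold it at the branch point, and many PRPF proteins act in the tri-snRNP or in the steps that activate the spliceosome. Serine/arginine-rich (SR) proteins bind exons and favour their inclusion, whereas heterogeneous nuclear ribonucleoproteins (hnRNPs) coat nascent RNA, often oppose the use of nearby splice sites and also act in RNA export, stability and translation. Neurons use alternative splicing widely, for example in transcripts of receptors, channels and synaptic adhesion proteins.

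RNA was measured on 8 single-colour arrays, 2 for each of 4 groups of Sprague-Dawley rats, described in the methods as male. Naïve rats had no treatment, sham rats had a sham injury, and injured rats had a moderate fluid percussion brain injury, a model of traumatic brain injury. Brains were removed after 24 h, and neurons were captured from frozen sections of 10 µm after staining with Fluoro-Jade, a dye that marks degenerating neurons. Dying neurons were Fluoro-Jade-positive, and surviving neurons were Fluoro-Jade-negative and, according to the methods, were taken only next to dying ones, so they do not stand for CA3 neurons far from the damage. Each injured sample was a pool of about 600 neurons from at least 3 rats per the methods. Ages were not given in the sources used here, and the labels name 2 amplification kits, RiboAmp HS and MessageAMP II, without saying which pool had which. The methods name only MessageAMP II, so whether the kit differed between groups or slides is not known here. Arrays are not tied to single animals, so p-values measure the spread between these pools and arrays, which may be technical in part.

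The arrays differed in overall signal before any gene was compared. Median signals were 27.2 and 22.7 in naïve rats, 16.5 and 16.4 in sham rats, 52.2 and 48.2 for surviving and 19.2 and 52.6 for dying neurons. Probes well above background numbered 22449 and 22391 in naïve rats, 20911 and 20193 in sham rats, 29347 and 27081 for surviving and 24064 and 27997 for dying neurons. Naïve and sham arrays lay on slide 1 and surviving and dying arrays on slide 2, and the protocol revision in the file headers also differed between the slides. Injury and slide therefore cannot be told apart in any comparison with sham, whereas surviving against dying and sham against naïve were each made within 1 slide. Values are given as log2 of the signal over the array's median, so that each array's median probe is at 0.

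Marker genes were read in the same arrays to check the label of hippocampal neurons. The 8 pyramidal neuron markers measured, of which Nrgn had the highest mean log2 level (as had the gene that leads each list below), summed to a scaled signal of 5783 and 8239 in naïve rats, 10878 and 9446 in sham rats, 6121 and 5926 for surviving and 3059 and 3312 for dying neurons. All 8 were above background on each array except Grik4 on dying array 1, and their sum was lowest on the dying arrays. Without Nrgn the sums were 845 and 399.7 for surviving and 99.5 and 402 for dying neurons, so that dying array 2 then lay level with surviving array 2. The 11 microglia and macrophage markers, led by C1qa, summed to 192 and 369 in naïve rats, 394 and 365 in sham rats, 455 and 471 for surviving and 1978 and 1113 for dying neurons, with Ptprc not well above background on 7 arrays, Cx3cr1 and Itgam not on the naïve and sham arrays, Cx3cr1 not on dying array 1, and Laptm5 left out as a non-uniform spot on the dying arrays. Oligodendrocyte markers (8 genes, led by Plp) ran the other way, at 1336, 1135, 1884 and 1791 on the naïve and sham arrays against 172 and 203 for surviving and 241 and 188 for dying neurons, with Cldn11 the exception to detection on naïve array 2. Most of that sum was Plp, except on dying array 1. Without it the sums were 195 and 290.1 in naïve rats, 264 and 332 in sham rats, 67.7 and 72.4 for surviving and 184 and 80.2 for dying neurons, and limma called 4 of the 8 genes lower in dying neurons than in sham (Plp, Mal, Mobp and Cnp1), while Mbp read 3.61 and 4.28 in sham and 3.83 and 3.43 in dying neurons. For astrocytes (9 genes, led by Slc1a3) the sums were 981 and 1149 in naïve rats, 1607 and 1060.5 in sham rats, 498 and 552 for surviving and 1371 and 554 for dying neurons, where Fgfr3 was not well above background without injury and S100b was not after it or on sham array 2. Endothelial and pericyte markers (9 genes, led by Kdr, with Tek not well above background on any array, Flt1 not without injury and Cdh5 not on naïve array 2 and the sham arrays) summed to 86.8, 124, 134 and 107 without injury, 88.0 and 81.2 for surviving and 400.4 and 155 for dying neurons. Interneuron markers (6 genes, led by Pvalb) summed to 330.2, 453, 416 and 394 without injury, 164 and 147 for surviving and 676 and 159 for dying neurons, with Gad2 not well above background without injury and Gad1 not on surviving array 2 and the dying arrays. Markers of neurons and of other cells thus moved together with the groups, dying array 1 stood apart from dying array 2, and their part in the differences of the splicing genes was not tested. In pools of captured cells, fewer cells of a type and less RNA per cell cannot be told apart.

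The 87 probes covered 15 probes of 9 SR and SR-related genes, 36 of 17 hnRNP genes, 13 of 9 snRNP genes, 9 of 7 SF3 genes and 14 of 9 PRPF genes. A RefSeq accession was attached to 85 of them, against 60.0% of all probes, so differences are set beside both all probes and the RefSeq probes. Most splicing genes were well measured: 55 probes of 41 genes passed the mark for being well above background on each of the 8 arrays, and 2 probes on none. Prpf39 was the 1 gene whose probe was never well above background. On single arrays the number well above background was 71 and 71 in naïve rats, 69 and 68 in sham rats, 77 and 77 for surviving and 62 and 72 of 87 for dying neurons. Non-uniform spots removed 2 values, Sfrs14 on dying array 2 and Hnrpm on dying array 1.

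**Figure D1:**
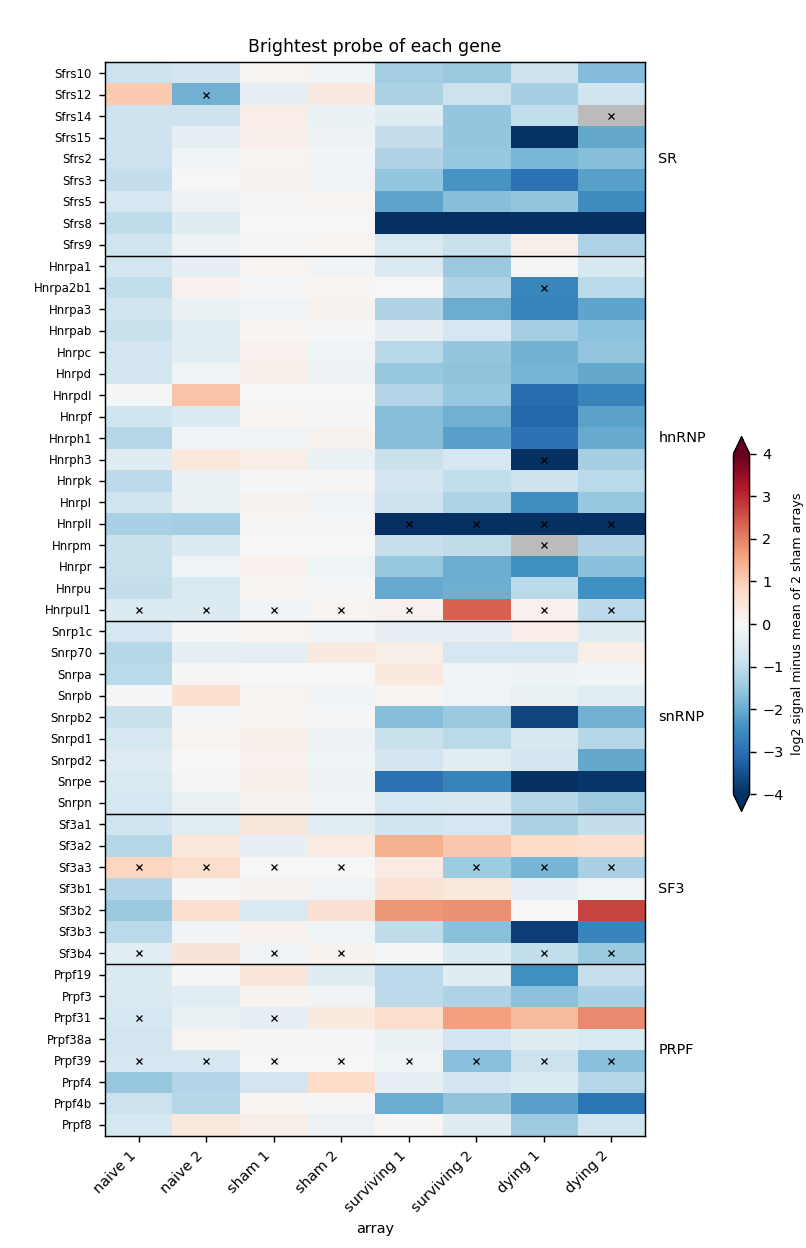
Log2 signal of the brightest probe of each gene reported on each array minus the mean of the 2 sham arrays, by family; crosses mark values not well above background and grey marks a value left out. Blue dominates in surviving and dying neurons with array-median scaling, which is also where the median of all probes lies below sham.

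Snrpn, which encodes the Sm protein N of brain snRNPs, gave 12.19 and 12.59 in naïve rats, 13.03 and 12.77 in sham rats, 12.21 and 12.27 for surviving and 11.77 and 11.44 for dying neurons. Both dying arrays lay below the other 6. Over the 55 probes well above background throughout, the median of the splicing genes minus the median of all 15254 such probes was 1.97 and 1.93 in naïve rats, 2.08 and 2.05 in sham rats, 1.86 and 1.83 for surviving and 0.95 and 1.53 for dying neurons. Scaling an array by any constant leaves these values as they are. The position of the splicing genes among all probes was thus lowest on the 2 dying arrays and most so on dying array 1. This position was not read against RefSeq probes array by array. The median difference of RefSeq probes was itself -0.34 relative to all probes in dying minus sham and 0.10 in surviving minus sham.

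**Figure D2:**
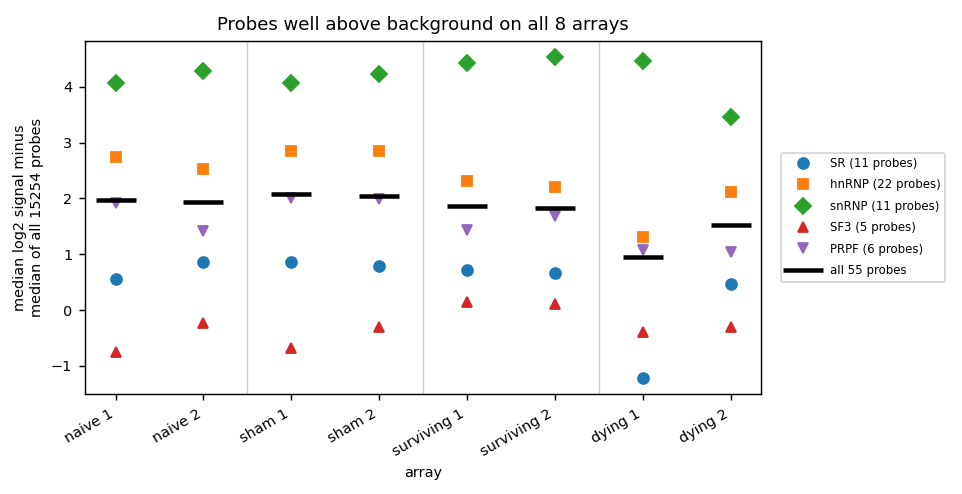
Median log2 signal of each family minus the median of all probes on each array, over probes well above background on all 8 arrays; symbols are families and black bars all 55 probes. The hnRNP median is 2.85 and 2.86 in sham rats, 2.32 and 2.20 for surviving and 1.30 and 2.12 for dying neurons, while the snRNP median shows no such order, at 4.06 and 4.23, 4.43 and 4.54, and 4.47 and 3.45.

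The comparison of surviving with dying neurons asks what distinguishes adjacent neurons of 1 injured region. Splicing genes tended to read lower in dying neurons, but 0 of the 74 probes tested (47 genes) passed the limma test at an adjusted p under 0.05, as did 0% of the 27393 probes tested on the array. At an unadjusted p under 0.05 there were 9 splicing probes, each lower in dying neurons, or 12.2%, against 10.9% of all and 13.7% of RefSeq probes in that direction (21.5% of all probes in both directions), so that this share was at the background. Over 2-fold differences with both arrays of 1 group above both of the other were found for 12 probes higher in surviving neurons (16.2%) and 0 lower. For all probes these shares were 17.1% higher and 14.9% lower, and for RefSeq probes 21.4% and 5.9%. The share on the higher side was therefore near the background, and no splicing probe lay on the other side, which was also the smaller one for RefSeq probes. With no filter on background, without surviving array 1 and without dying array 1, 1 splicing probe lay there in each case. Their median difference was 0.56, against 0.14 for all probes and 0.37 for RefSeq probes, with 61 of 74 probes above 0.

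The 2 dying arrays differed in how the splicing genes lay against other probes. Of the 61 splicing probes well above background on all 4 arrays, 41 (67.2%) lay below both surviving arrays on dying array 1 and 39 (63.9%) on dying array 2. Among all 21262 such probes the shares were 38.1% and 49.3%, and among RefSeq probes 45.8% and 57.9%. The median of the surviving mean minus the array was 0.49 on dying array 1, against -0.19 for all and 0.09 for RefSeq probes, and 0.32 on dying array 2, against 0.19 and 0.31, so that on the latter array the splicing genes lay near the RefSeq probes. More than 2-fold below the surviving neurons were 19 probes on dying array 1 (31.1%, against 19.4% of all and 24.2% of RefSeq probes) and 7 on dying array 2 (11.5%, against 11.5% and 14%). Without dying array 2, limma called 13 splicing probes lower in dying neurons (17.8%), against 11.5% of all probes and 14.3% of RefSeq probes in that direction, and without any other single array it called 0.

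Some of the largest differences were in components of the core machinery. Snrpe, which encodes an Sm protein of the ring, read 3.61 and 3.88 for surviving and 0.97 and 2.66 for dying neurons, a difference of 1.93 ± 0.61 (SE, n = 2 per group; limma adjusted p = 0.146). Sf3b3, a subunit of SF3B, read 3.38 and 2.74 against 0.64 and 1.77, a difference of 1.86 ± 0.58 (limma adjusted p = 0.144). The groups were apart for both genes, while for Snrpe the dying arrays lay nearly as far from each other as the groups did. Snrpb2, a protein of the U2 snRNP, read 3.25 and 3.45 against 1.28 and 3.02. Sfrs15, an SR-related protein, read 5.51 and 4.93 against 2.52 and 4.42, again with dying array 1 the lower. Hnrph3 at 1.2 and 1.40 against -2.02 and 0.75 had the same form, with dying array 1 not well above background.

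Hnrpdl, an hnRNP related to Hnrpd, had closer replicates. It read 3.16 and 2.82 for surviving and 1.30 and 1.67 for dying neurons, a 2.84-fold difference (limma adjusted p = 0.167), and was the 1 splicing gene over 2-fold among the 24 probes within the study's limit on the ratio of replicates, 1.5 in both groups (4.17%, against 10.5% of all probes higher). Hnrpa1, an abundant shuttling hnRNP, was read by 4 probes. Its dim probe A_44_P944757 read 0.95 and 0.36 against -1.49 (not well above background) and -1.65, so that only 1 of the 2 dying arrays measured it, a difference of 2.23 (limma adjusted p = 0.114). Its brightest probe A_44_P283372 read 6.53 and 5.62 against 7.03 and 6.46, a difference of -0.67. Neither difference passed. In 4 other genes among the 12 the brighter probe differed less than the dim one: Sfrs5 by 0.15 against 1.78, Hnrpk by 0.12 against 1.18, Hnrpd by 0.40 against 1.49 and Hnrpl by 0.98 against 1.51. For Hnrpl the dim probe was not well above background on the dying arrays, so that its 1.01-fold bound leaves no measured fall.

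Other members were close in both groups. Sm protein B gene Snrpb read 5.42 and 5.14 for surviving and 5.04 and 4.90 for dying neurons, and Snrp1c, the U1 C protein, 9.16 and 9.16 against 9.77 and 8.99. Snrpa, the U1 A protein, read 5.22 and 4.67 against 4.66 and 4.73. These differences, at 0.32, -0.22 and 0.25, were below their SE of 0.45, 0.48 and 0.51 (n = 2 per group), which does not show that the levels were equal.

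**Figure D3:**
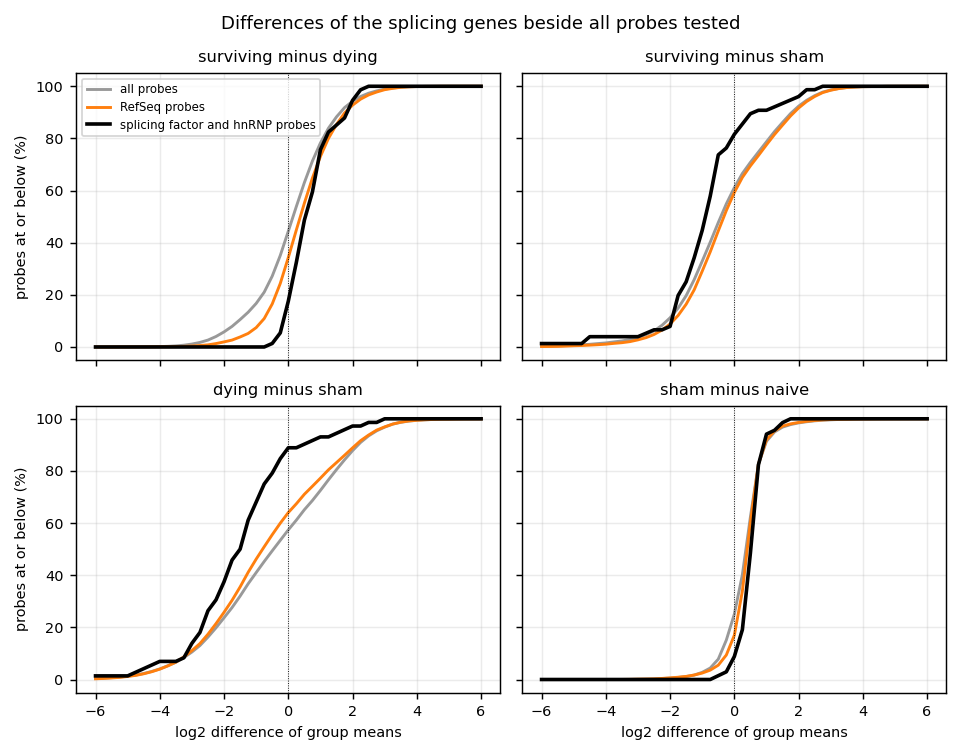
Percent of probes at or below each log2 difference of group means in the 4 comparisons, for splicing factor and hnRNP probes (black), RefSeq probes (orange) and all probes tested (grey). In dying minus sham the black curve lies left of both others over most of the range, with a median of -1.51 against -0.80 and -0.46. The place of 0 in the comparisons with sham depends on the scaling of the arrays.

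Comparisons with sham ask how neurons of the injured hippocampus differ from uninjured ones. With array-median scaling the median of all probes was itself -0.43 in surviving minus sham and -0.46 in dying minus sham, and it moved to 0.55 in both with each array divided by the median of those probes that were above background throughout (the all-array probes), a scaling chosen after the data were seen. Splicing genes lay below that shift. Their median was -0.89 in surviving minus sham (76 probes, 48 genes) and -1.51 in dying minus sham (72 probes, 47 genes), or -0.46 and -1.05 relative to all probes and -0.56 and -0.71 relative to RefSeq probes. Among probes that were above background on each of the 4 arrays the relative medians were -0.16 and -0.57. With these probes alone limma called 15 of 65 lower in surviving (23.1%, against 16% of all probes) and 32 of 56 in dying neurons (57.1%, against 37.3%), and 0 higher in either, with 24 and 36 at an unadjusted p under 0.05 in both directions together. In surviving minus sham the median itself turned from below 0 to 0.01 with normexp background correction and 0.09 with the scaling on the all-array probes, while relative to all probes it stayed below 0 in each setting tried.

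In dying neurons limma called 34 splicing probes lower than sham (47.2%) and 3 higher, against 29% of all probes lower and 15.1% higher, and 32.1% and 13.3% of RefSeq probes. In surviving neurons it called 17 lower (22.4%) and 1 higher, against 12% lower and 6.82% higher of all probes, and 9.83% and 7.35% of RefSeq probes. Over 2-fold with the groups apart were 46 lower (63.9%) and 4 higher in dying neurons, beside 38.9% and 25.9% of all probes, and 34 lower (44.7%) and 7 higher in surviving neurons, beside 32.4% and 20.4%. With array-median scaling the share of splicing probes below sham was thus above the background in both comparisons. In surviving neurons this held, against all probes, with this scaling alone. With the replicate number of the arrays as a block, the share there was near that of all probes even with this scaling (9.21%, against 8.19%). The 2 comparisons use the same sham arrays. Whether dying and surviving neurons differ in their distance to sham is the comparison of surviving with dying neurons, in which no splicing probe passed.

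These counts depended on scaling and on single arrays. In surviving neurons the split of lower and higher calls was 4 and 4 with the 75th percentile, 3 and 1 with quantile normalization, 3 and 4 with the series values as deposited and 3 and 5 with the all-array probes. The lower calls were 5.26%, 3.95%, 3.95% and 3.95% of the splicing probes, against 5.56%, 5.71%, 5.36% and 4.53% of all probes, so that the share in surviving neurons was near or below that of all probes in these 4 scalings. Of RefSeq probes 4.28%, 3.99%, 4.04% and 3.48% were called lower. Higher calls were 5.26%, 1.32%, 5.26% and 6.58% of the splicing probes, below the 15.4%, 8.33%, 16.4% and 18.2% of all probes. In dying neurons the split was 26 and 4, 16 and 1, 22 and 4, and 20 and 4. There the lower calls were 36.1%, 22.2%, 30.6% and 27.8% of the splicing probes, against 18.6%, 15.9%, 16.9% and 14.7% of all probes, and stayed above the background. The higher calls there were 5.56%, 1.39%, 5.56% and 5.56%, against 27.5%, 20.5%, 28.7% and 32.2% of all probes. Each of the 34 and of the 17 probes called lower kept its sign in these 4 scalings, and 15 and 3 of them kept the call in each. In surviving neurons the 3 were probes of Hnrpll and Sfrs8 and the dim Prpf4b probe. Those of Hnrpll and Prpf4b were not well above background on any injured array and entered the test only through sham, where they are high, so that Sfrs8 alone was measured on both sides. Every other lower call there was lost in the 4 scalings, apart from a dim Hnrpd probe that kept it in 1. The Hnrpll probe and the dim Prpf4b probe are also among the 15 in dying neurons, where they add no support for the same reason. So is the dim Hnrpa1 probe A_44_P944757, which entered through sham and was well above background on only 1 dying array. Without each array in turn, 8 of the 34 and 2 of the 17 kept the call throughout, Hnrpll among both and the dim Prpf4b probe among the 8. With normexp correction limma called 0 splicing probes in any comparison, with 7 at an unadjusted p under 0.05 in dying and 4 in surviving minus sham, and 0 of all probes. Without either sham array limma called fewer splicing probes, and fewer of all probes, in both comparisons. In dying neurons the share lower then lay nearer that of all probes. Without sham array 1 the median relative to all probes was -0.99 in dying and -0.49 in surviving minus sham. Without sham array 2 it was -1.12 and -0.45. Fewer of both were also called in surviving minus sham without surviving array 1 or 2, with relative medians of -0.61 and -0.55. Marker sums that moved with these comparisons, chiefly those of oligodendrocytes and microglia, were given above, and their part was not tested.

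Among hnRNP genes, 19 of 30 probes (63.3%) fell and 1 was called higher in dying neurons (3.33%, against 15.1% of all probes). In surviving neurons 11 of 31 (35.5%) fell. Of all probes 29% and 12% were called lower, and of RefSeq probes 32.1% and 9.83%. In the 4 other scalings the lower calls numbered 13, 8, 11 and 11 in dying neurons (75th percentile, quantile, deposited series values and all-array probes) and 2, 1, 1 and 1 in surviving neurons. Of all probes, 18.6%, 15.9%, 16.9% and 14.7% were called lower in dying and 5.56%, 5.71%, 5.36% and 4.53% in surviving neurons. The family's calls in surviving neurons were thus near the background, and these shares are also the background for the families below. Relative to all probes the family's median was -1.52 in dying and -0.60 in surviving minus sham, and it stayed below 0 in the scalings tried. Relative to RefSeq probes it was -1.18 and -0.70. Hnrpu, which encodes a large nuclear scaffold and RNA-binding protein, was called lower by each of its 3 probes in both groups with array-median scaling. Of these calls, that of probe A_44_P496211 in dying neurons held in the 4 other scalings, the brightest probe lost its call in each of them, and no Hnrpu call in surviving neurons held in any. Its brightest probe read 9.61 and 9.42 in sham rats, 7.50 and 7.56 for surviving and 8.43 and 7.05 for dying neurons. Probe A_44_P496211 read 7.86 and 7.86, 6.16 and 6.19, and 5.15 and 5.54, a fall of 3.21-fold in surviving (limma adjusted p = 0.0344) and 5.70-fold in dying neurons (limma adjusted p = 0.0042). Naïve neurons, at 6.83 and 7.27, lay below sham and above both injured groups.

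Hnrpd, also called AUF1 and known to bind AU-rich elements in mRNA, fell by 1.55 in surviving (limma adjusted p = 0.0455) and 1.95 in dying neurons (limma adjusted p = 0.0106) on its brightest probe. That probe read 6.90 and 6.52 in sham rats, 5.20 and 5.12 for surviving and 4.84 and 4.67 for dying neurons. Hnrpf, which binds runs of G, read 7.28 and 7.13 in sham rats, 5.49 and 5.29 for surviving and 4.06 and 5.06 for dying neurons, and its relative Hnrph1 read 7.34 and 7.60, 5.75 and 5.30, and 4.51 and 5.46. Both fell in both groups, but in surviving neurons neither call held in any of the 4 other scalings, and the same was so for Hnrpd above. In dying neurons the call held in each of them for Hnrpf and in 3 for Hnrph1 and for Hnrpd. Hnrpr, a relative of Syncrip, fell on its brightest probe, from 6.43 and 6.09 in sham to 4.73 and 4.26 for surviving and 3.8 and 4.57 for dying neurons, calls that held in none of the 4 other scalings for surviving and in 1 for dying neurons. Its dim probe A_44_P210235 was not well above background in sham and read 0.55 and 1.73 in dying neurons, at least 2.57-fold higher (limma adjusted p = 0.0326). This probe entered the test only through the injured groups, where it is high, so its call is a description and no sign of a rise. Such bounds take the mean of the brighter group over the mean, per array of the other group, of the higher of the probe's own signal and the dimmest signal that still counted as well above background.

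Called lower in dying but not in surviving neurons were Hnrpc, Hnrpa3, Hnrpab, Hnrpdl, Hnrph3 and Hnrpl, though none of these genes passed between surviving and dying neurons. Hnrpc, a core protein of hnRNP particles that binds uridine tracts, read 9.31 and 8.99 in sham rats, 8.03 and 7.61 for surviving and 7.27 and 7.58 for dying neurons. Hnrpa3, a relative of Hnrpa1, read 6.22 and 6.51, 5.16 and 4.37, and 3.68 and 4.24. Hnrpl, which binds CA repeats, read 8.18 and 7.90, 7.22 and 6.81, and 5.56 and 6.51. Hnrpc, Hnrph3, Hnrpl and both called probes of Hnrpab lost the call in dying neurons with each of the 4 other scalings, Hnrpa3 kept it in 3 and Hnrpdl in each. The Hnrph3 probe was well above background on only 1 of the 2 dying arrays and so entered the test through sham. The bright hnRNP genes Hnrpm and Hnrpk lay lower than sham without passing on their brightest probes. Hnrpm read 9.96 and 9.92 in sham, 9.03 and 8.93 in surviving and 8.74 on the 1 dying array measured. Hnrpk, a poly-C-binding protein, read 9.74 and 9.87 in sham rats, 9.08 and 8.82 for surviving and 8.95 and 8.72 for dying neurons. Its dimmer probe A_44_P526056 fell in both groups, by 2.18 (limma adjusted p = 0.032) and 3.37 (limma adjusted p = 0.00343), and kept the call in the other scalings in dying neurons only.

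Hnrpll is an hnRNP L relative known for regulating the splicing of the leukocyte antigen CD45. It read 1.53 and 1.46 in naïve and 2.88 and 2.76 in sham, and was not well above background on any injured array, at -4.26 and -3.47 for surviving and -3.25 and -4.09 for dying neurons. It was at least 27.6-fold lower in surviving (limma adjusted p = 0.000932) and at least 23.2-fold lower in dying neurons (limma adjusted p = 0.000427), and the call held in the 4 scalings and without each array in turn. This probe entered both tests only through sham, where it is high, so its calls and their persistence are a description and no sign of a fall. The other Hnrpll probe was not well above background on any array.

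SR genes had 6 of 13 probes (46.2%) lower than sham in dying and 3 of 14 (21.4%) in surviving neurons, against 29% and 12% of all probes, and none higher by limma. At an unadjusted p under 0.05 there were 8 (61.5%) and 5 (35.7%), each lower, against 34.4% and 23.2% of all probes in that direction. The lower calls became 6, 3, 5 and 4 in dying and 1 in each in surviving neurons in the 4 other scalings, in the order given above. Relative to all probes their median was -0.97 and -0.72, below 0 in each scaling tried, and relative to RefSeq probes -0.63 and -0.82. Sfrs3, now Srsf3, the smallest of the classical SR proteins, read 5.25 and 4.97 in sham rats, 3.57 and 2.74 for surviving and 2.16 and 2.95 for dying neurons. It fell 3.89-fold in surviving (limma adjusted p = 0.0457) and 5.89-fold in dying neurons (limma adjusted p = 0.0091), where the call held in the 4 other scalings, while in surviving neurons it held in none and the difference was -1.18 to -0.93. Sfrs5, now Srsf5, read 9.28 and 9.41 in sham rats, 7.23 and 7.65 for surviving and 7.77 and 6.82 for dying neurons on its brightest probe and also fell in both, with the call kept in 2 of the other scalings in dying and in none in surviving neurons. Sfrs2, now Srsf2, fell in dying neurons, from 2.56 and 2.36 in sham to 0.64 and 0.76, a call kept in 2 of the 4 other scalings, with surviving neurons at 1.25 and 0.95. Sfrs15 fell there as well, from 6.68 and 6.25 to 2.52 and 4.42, with the call kept in 3. Sfrs10, now Tra2b, read 8.21 and 7.97 in sham rats, 6.69 and 6.61 for surviving and 7.24 and 6.36 for dying neurons, and missed the threshold (limma adjusted p = 0.0642 and 0.0527). Sfrs9, now Srsf9, at 4.82 and 4.99, 4.28 and 4.0, and 5.13 and 3.66, overlapped with sham in dying neurons. Sfrs14, among the 3 SR genes of highest mean signal, read 9.21 and 8.65 in sham, 8.43 and 7.38 in surviving and 7.94 on the 1 dying array measured, and was not called.

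Sfrs8, now Sfswap, a splicing regulator related to the fly suppressor of white-apricot, had probes that went opposite ways. Probe A_44_P1015606 read 4.48 and 5.0 in naïve rats, 5.5 and 5.5 in sham rats, 0.29 and 1.25 for surviving and 0.79 and 0.65 for dying neurons. Its fall was 26.5-fold in surviving (limma adjusted p = 0.00205) and 27.5-fold in dying neurons (limma adjusted p = 0.000977), and was called in the 4 scalings and without each array in turn. Probe A_43_P18523 of the same gene read 1.13 and 1.22, 1.46 and 2.14, 3.61 and 3.41, and 1.33 and 4.0, above sham on both surviving arrays and not called. No single level of the gene can be read from the pair.

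Among snRNP genes 4 of 12 probes were lower in dying (33.3%) and 1 in surviving neurons (8.33%), near the 29% and 12% of all probes, and 0 were higher by limma (5 and 3 at an unadjusted p under 0.05, each lower, or 41.7% and 25%, against 34.4% and 23.2% of all probes). In the 4 other scalings the lower calls became 3, 1, 2 and 1 in dying and 0 in each in surviving neurons. Relative to all probes the family's median was -0.40 in dying and -0.21 in surviving minus sham, and relative to RefSeq probes -0.06 and -0.31, so that in dying neurons the family lay close to the RefSeq median. In surviving minus sham the median relative to all probes turned to 0.29 with normexp correction. Snrpe fell from 6.76 and 6.37 in sham to 3.61 and 3.88 in surviving (7.04-fold, limma adjusted p = 0.0223) and 0.97 and 2.66 in dying neurons (26.9-fold, limma adjusted p = 0.0019). Its call held in dying neurons in the 4 scalings, and in surviving neurons in none of them. Snrpb2 fell in dying neurons from 5.01 and 4.87 to 1.28 and 3.02, a call kept in 2 of the 4 other scalings, and Snrpn by 1.30 (limma adjusted p = 0.0404), a call lost in the 4 other scalings. Snrpd1, encoding Sm protein D1, read 10.25 and 9.83 in sham rats, 9.15 and 8.96 for surviving and 9.41 and 8.92 for dying neurons on its brightest probe and did not pass, whereas its dimmest probe fell in dying neurons, from 7.14 and 6.64 to 5.33 and 4.91 (limma adjusted p = 0.0224, kept in 1 other scaling). Other members stayed near sham. Snrpb was at 5.43 and 5.22, Snrpa at 4.85 and 4.83, Snrp1c at 9.6 and 9.38 and Snrp70, the U1 70K protein, at 8.44 and 9.19 in sham, and in dying neurons they differed from it by -0.35, -0.15, -0.11 and -0.24. With the scaling on the all-array probes each of these would lie above sham, because that scaling adds about 1 to the differences.

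**Figure D4:**
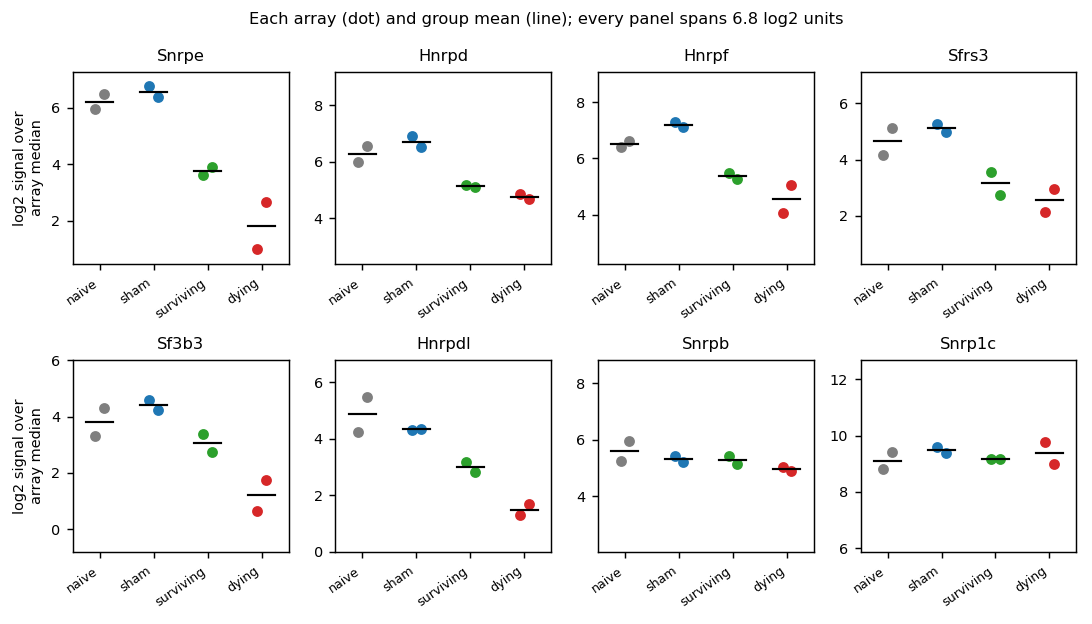
Log2 signal over the array median of 8 genes, with a dot for each array and a line for each group mean; every panel spans the same range. Snrpe, Hnrpd, Hnrpf, Sfrs3, Sf3b3 and Hnrpdl lie below sham in dying neurons, and Snrpb and Snrp1c lie near sham with this scaling and above it with the scaling on the all-array probes.

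SF3 genes had 1 of 6 probes (16.7%) lower in dying and 0 of 8 in surviving neurons, below the 29% and 12% of all probes. In limma 2 (33.3%) and 0 were lower at an unadjusted p under 0.05, against 34.4% and 23.2% of all probes, and none was called higher with array-median scaling. In the 4 other scalings the lower call in dying neurons remained at 1, while 1, 0, 1 and 1 were called higher in dying and 1, 1, 1 and 2 in surviving neurons. Of all probes, 27.5%, 20.5%, 28.7% and 32.2% were called higher in dying neurons in these scalings. In surviving neurons 15.4%, 8.33%, 16.4% and 18.2% were, so these SF3 calls are too few to set apart from the background. Their median relative to all probes was -0.24 in dying and 0.17 in surviving minus sham, and these signs did not hold throughout: the first turned to 0.31 with normexp correction and the second to -0.07 with quantile normalization. Relative to RefSeq probes the medians were 0.097 and 0.069. The called gene was Sf3b3, which fell from 4.57 and 4.23 in sham to 0.64 and 1.77 in dying neurons (9.17-fold, limma adjusted p = 0.00497), a call that held in the 4 scalings. Surviving neurons lay between, at 3.38 and 2.74. Sf3b1, which contacts the branch point, read 1.81 and 1.51 in sham rats, 2.22 and 2.09 for surviving and 1.27 and 1.48 for dying neurons. Sf3a2 read 1.92 and 2.59, 3.68 and 3.34, and 2.98 and 2.89, above sham in both injured groups, and did not pass with array-median scaling. It was called higher in surviving neurons in each of the 4 other scalings (limma adjusted p = 0.0205 to 0.0448) and in dying neurons in all but quantile normalization (limma adjusted p = 0.0262 to 0.0477). Sf3b1 was called higher in surviving neurons with the all-array probes alone (limma adjusted p = 0.0353). Sf3a1 at 4.79 and 3.89, 3.56 and 3.65, and 3.08 and 3.37 lay below sham and did not pass. Sf3b2 read 3.71 and 4.94, 6.10 and 6.15, and 4.33 and 7.04, with dying arrays wider apart than any group difference.

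PRPF genes had 4 of 11 probes (36.4%) lower and 2 (18.2%) higher in dying and 2 (18.2%) lower and 1 (9.09%) higher in surviving neurons. Of all probes, 29% and 12% were called lower and 15.1% and 6.82% higher, so the higher calls were near the background. The lower calls became 3 in dying and 1 in surviving neurons in each of the 4 other scalings. The dim Prpf4b probe described below is among the lower calls of both groups, and it is the 1 that remained in surviving neurons. Relative to all probes the median was -1.0 and -0.15, the latter turning to 0.06 with normexp correction. Relative to RefSeq probes it was -0.67 and -0.25. Prpf4b, a kinase that associates with the tri-snRNP, was called lower by both probes in both groups. Its brighter probe read 6.47 and 6.29 in sham, 4.41 and 4.78 in surviving (limma adjusted p = 0.0359) and 4.22 and 3.46 in dying neurons (limma adjusted p = 0.00509), and of these 2 calls the one in dying neurons held in the other scalings. Its dim probe read 0.83 and 0.14 in sham, was not well above background after injury, and was at least 5.47-fold lower in surviving (limma adjusted p = 0.00346) and at least 4.58-fold lower in dying neurons (limma adjusted p = 0.00178). As it entered these tests only through sham, where it is high, its calls are a description and add no support to those of the brighter probe. Prpf31, a tri-snRNP protein, was called higher in dying neurons, at -0.85 and -0.06 in sham against 0.80 and 1.45 (limma adjusted p = 0.0448), a call that was lost whichever 1 of the 8 arrays was left out. The call was kept in 3 of the 4 other scalings, all but quantile normalization, and these 3 also called Prpf31 higher in surviving neurons. Only 1 of the 2 sham arrays had it well above background, so it too entered the test through the injured groups. Prpf19 at 2.21 and 1.25 in sham and -0.71 and 0.82 in dying neurons was lower without passing (limma adjusted p = 0.0626).

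Prpf3, another tri-snRNP protein, was read by a bright and a dim probe. Its bright probe fell in dying neurons, from 6.46 and 6.15 in sham to 4.67 and 5.01 (limma adjusted p = 0.0256), a call lost in the 4 other scalings, where the difference was -0.74 to -0.24, and kept in 3 of the 8 fits without an array. Its dim probe was not well above background in naïve or sham neurons and read 1.12 and -0.03 for surviving and 1.05 and 0.30 for dying neurons, at least 1.70-fold (limma adjusted p = 0.0413) and 1.87-fold higher (limma adjusted p = 0.0165). As this probe entered the test only through the injured groups, the pair is no measure of opposite change. Prpf8, the core protein of the U5 snRNP, read 8.26 and 7.82 in sham rats, 8.08 and 7.57 for surviving and 6.60 and 7.26 for dying neurons and was not called. Prpf38a, at 6.31 and 6.23, 5.96 and 5.51, and 5.79 and 5.67, was not called either.

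Sham against naïve, made within slide 1, asks what surgery without injury changes. Limma called 0 of 68 splicing probes and 0% of all 20679, with 3 splicing probes at an unadjusted p under 0.05, each higher in sham (4.41%), against 3.9% of all and 3.52% of RefSeq probes in that direction and 4.82% of all probes in both. Over 2-fold with the groups apart were 4 probes higher in sham and 0 lower, against 7.55% and 2.1% of all probes. The median was 0.51, against 0.37 for all probes, and 62 of 68 probes were above 0. Hnrpll at 2.88 and 2.76 against 1.53 and 1.46, and Prpf4b at 6.47 and 6.29 against 5.51 and 5.23, were the 2 genes over 2-fold within the study's limit on replicates. A Sfrs5 probe, at 2.20 and 1.62 against -0.09 and 0.86, had the largest difference. Prpf4, a protein of the U4/U6 snRNP, read 1.14 and 2.63 in sham against 0.37 and 0.70 in naïve rats, a difference of 1.35 with the sham arrays wide apart. Probes of Hnrpll, Sfrs5 and Prpf4 were the 3 at an unadjusted p under 0.05. Splicing genes were close to the background in this comparison.

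Probes of 1 gene on the same array can be subtracted from each other, and scaling an array by any constant leaves the result as it is. Pairs were formed by the brightest RefSeq probe of a gene, among those above background on all 8 arrays, and each other such probe, which gave 12 pairs of 9 splicing genes among 1181 pairs of 1033 genes. In dying minus sham 4 of the 12 passed limma, against 16.9% of all pairs, in surviving minus sham 1, against 1.35%, and in surviving minus dying and in sham minus naïve 0, against 0% and 0% of all pairs, with 2 and 0 at an unadjusted p under 0.05. Unequal change of probes of a gene was thus measured, and which probe follows the transcript, or which transcript form, was not tested, since probe sequences were not used here.

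For Hnrpa1 the difference between probes A_44_P485694 and A_44_P944758 was 0.27 and 0.42 in naïve rats, 0.51 and 0.83 in sham rats, 1.64 and 1.75 for surviving and 2.89 and 2.66 for dying neurons. It grew by 2.10 ± 0.26 from sham to dying neurons (SE; limma adjusted p = 0.0121), and the 4 groups did not overlap. Its surviving minus dying value was -1.08 and did not pass (limma adjusted p = 0.244). For Hnrpk the difference was 1.67 and 1.97 in sham rats, 3.05 and 3.24 for surviving and 4.88 and 3.55 for dying neurons (dying minus sham 2.40, limma adjusted p = 0.0248). The Hnrpd pair stood at 1.5 and 1.62, 2.34 and 2.77, and 4.30 and 2.99 (dying minus sham 2.09, limma adjusted p = 0.0333). In these 3 genes the dimmer probe was the one that lost more signal. The Sfrs8 pair went from 4.04 and 3.35 in sham to -3.32 and -2.16 for surviving and -0.55 and -3.35 for dying neurons (limma adjusted p = 0.0401 and 0.0189). For Hnrpu the pairs did not pass and the dying arrays lay far apart, at 2.36 and 0.62 against 1.47 and 1.48 in sham for probe A_44_P254413, and at 3.28 and 1.51 against 1.75 and 1.56 for probe A_44_P496211.

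**Figure D5:**
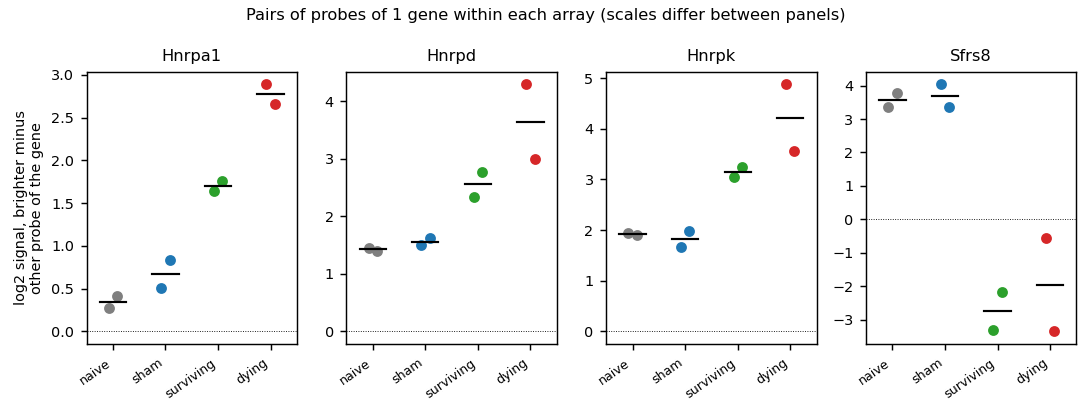
Difference of log2 signal between a brighter and a dimmer probe of 1 gene within each array, with a dot for each array and a line for each group mean; scales differ between panels. The difference grows from sham to dying neurons for Hnrpa1, Hnrpd and Hnrpk and turns from above to below 0 for Sfrs8.

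Other splicing genes outside these families were read from a list of 85 genes and 119 probes. Of 99 probes tested in dying minus sham, 47 were lower (47.5%) and 3 higher (3.03%) by limma, against 29% of all probes lower and 15.1% higher. Their median was -1.23 relative to all probes and -0.89 relative to RefSeq probes. Of 101 in surviving minus sham, 16 were lower (15.8%, against 12%) and 3 higher (2.97%, against 6.82%). The relative medians there were -0.57 and -0.67. In surviving minus dying 0 of 97 passed limma, with 14 lower in dying neurons (14.4%, against 10.9% of all and 13.7% of RefSeq probes) and 1 higher at an unadjusted p under 0.05, and 19 were over 2-fold higher with the groups apart (19.6%, against 17.1% of all and 21.4% of RefSeq probes) and 1 lower. In the 4 other scalings, run for this list after the data were seen, the share lower in dying minus sham was 32.3%, 20.2%, 28.3% and 23.2%, against 18.6%, 15.9%, 16.9% and 14.7% of all probes, and the split of lower and higher calls moved from 47 and 3 to 32 and 7, 20 and 7, 28 and 8, and 23 and 12. In surviving minus sham the share lower was 4.95%, 1.98%, 3.92% and 1.98%, below that of all probes in each, and the split moved from 16 and 3 to 5 and 4, 2 and 2, 4 and 5, and 2 and 5. Of all probes, 27.5%, 20.5%, 28.7% and 32.2% were called higher in dying and 15.4%, 8.33%, 16.4% and 18.2% in surviving minus sham. Among probes above background on each of the 4 arrays limma called 40 of 73 lower in dying (54.8%, against 37.3% of all) and 15 of 86 in surviving neurons (17.4%, against 16%), and 0 higher in either, with 47 and 32 at an unadjusted p under 0.05 in both directions together. With normexp correction limma called 0 of the list in either, with 10 and 5 at an unadjusted p under 0.05. Of the kinases and partners of SR proteins, 7 of 15 probes fell in dying neurons, among them Clk4, which phosphorylates SR proteins, from 6.42 and 6.34 in sham to 4.51 and 4.49 for surviving and 3.55 and 4.06 for dying neurons, a call that held there in the 4 other scalings and in surviving neurons in none. Of the helicases and core factors, 15 of 27 fell in dying neurons, and of the snRNP assembly factors 5 of 8, including Smn1, from 6.26 and 6.14 to 4.15 and 4.30, with the call kept in 3. Of the RNA binders 8 of 16 fell, of the LSm genes 2 of 5, of the exon junction genes 1 of 2, and of the U2AF and branch point list 1 of 3 fell and 1 was called higher. The latter was the dim Ptbp1 probe, which was not well above background in sham and entered the test only through the injured groups, so that it is no sign of a rise. The last 3 lists are too small to set apart from the 29% of all probes and 32.1% of RefSeq probes called lower. Lsm1, a protein of the cytoplasmic LSm ring that acts in mRNA decay, read 5.75 and 5.08 in sham rats, 3.56 and 2.87 for surviving and -0.22 and 0.48 for dying neurons.

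Of the neuronal splicing regulators, 8 of 23 probes (34.8%) were lower and 2 (8.7%) higher in dying minus sham, near the 29% and 15.1% of all probes. Elavl3, a neuronal Hu protein, fell from 8.23 and 8.15 in sham to 5.97 and 6.71 in dying neurons (limma adjusted p = 0.0161), a call lost in the 4 other scalings. Elavl4 probe A_44_P941612 was lower by 3.52 (limma adjusted p = 0.00265), a call kept in each of them, while the brightest Elavl4 probe was not called. Cugbp1, which binds GU-rich RNA, was not well above background in naïve or sham neurons, and read 0.52 and 1.14 for surviving and 0.92 and -0.30 for dying neurons, higher than sham by limma in both (adjusted p = 0.0101 and 0.00608), though its probe entered the test only through the injured groups. Ptbp1, listed with U2AF and known as a repressor of neuronal exons, was the 1 probe of the wider list over 2-fold higher in dying than in surviving neurons with the groups apart. Its bright probe read 5.22 and 5.72 in naïve rats, 6.09 and 6.40 in sham rats, 5.88 and 5.53 for surviving and 7.90 and 7.03 for dying neurons, a difference of -1.76 (limma unadjusted p = 0.00726) that did not pass adjustment. Microglial and endothelial marker sums were also highest on the dying arrays, and their part in the Ptbp1 value was not tested.

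Promoters were read for 48 of the 51 genes from RefSeq, build GRCr8, as 300 bases around the start of each gene, and Hnrpll and Sf3b2 are among those without one. They are given as a description, and a link between motifs and the levels in dying neurons was not tested. Motifs were searched on both strands. The ETS motif CCGGAAG was in 14 of 48 (29.2%) against 9.22% of all 27457 promoters, the E-box CACGTG in 9 (18.8%) against 6.65%, the GC box GGGCGG in 27 (56.2%) against 34.9%, and the CCAAT box CCAAT in 24 (50%) against 37.7%. TATAAA was in 5 (10.4%) against 14.3%, GCATGCGC in 2 (4.17%) against 2.66%, AAGATGGCG in 1 (2.08%) against 1.93% and TGACGTCA in 0 against 1.91%. The median GC content was 59% against 52.3% and the median number of CpG was 24 against 7, and the part of base composition in the motif shares was not tested. A match is a run of letters and not a binding site.

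The 3 promoters printed belong to those genes with a promoter that had the smallest adjusted p in dying minus sham on their brightest probe, with capitals for motif matches. Sfrs8 (Sfswap) at chr12:32815983-32816282 on the minus strand holds CCGGAAG on each strand once. Snrpe at chr13:47609202-47609501 on the minus strand holds 2 such matches, 1 on each strand, that overlap in CTTCCGGAAG. Sf3b3 at chr19:55729572-55729871 on the minus strand holds none of the motifs. Sequences are written 5′ to 3′ on the strand of the gene.
Sfswap: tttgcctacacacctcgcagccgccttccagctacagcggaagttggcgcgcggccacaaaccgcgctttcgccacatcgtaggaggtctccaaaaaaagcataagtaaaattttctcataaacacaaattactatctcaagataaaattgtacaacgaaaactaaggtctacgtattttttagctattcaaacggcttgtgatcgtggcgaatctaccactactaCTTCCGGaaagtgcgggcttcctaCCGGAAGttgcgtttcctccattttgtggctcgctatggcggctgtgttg
Snrpe: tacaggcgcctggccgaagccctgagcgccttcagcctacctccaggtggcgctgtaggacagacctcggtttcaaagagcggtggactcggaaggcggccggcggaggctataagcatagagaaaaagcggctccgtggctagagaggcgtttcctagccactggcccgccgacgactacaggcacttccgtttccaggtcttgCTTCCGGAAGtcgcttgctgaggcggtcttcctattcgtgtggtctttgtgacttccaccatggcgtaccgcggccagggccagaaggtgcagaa
Sf3b3: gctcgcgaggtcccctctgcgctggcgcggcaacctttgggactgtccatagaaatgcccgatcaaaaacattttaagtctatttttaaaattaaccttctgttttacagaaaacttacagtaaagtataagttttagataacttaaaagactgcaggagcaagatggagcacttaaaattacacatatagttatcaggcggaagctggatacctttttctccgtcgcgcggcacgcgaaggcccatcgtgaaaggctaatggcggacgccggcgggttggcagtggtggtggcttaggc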

How the data were processed

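RNA of captured CA3 neurons was measured on 8 arrays, 2 per group. Intensity values come from Agilent Feature Extraction 9.1.3.1 per the file headers, run by the authors, with background subtracted and no scaling between arrays, and the same deposited files hold mean and background intensities and spot marks. Signal values of the series table are the authors' processed signals divided by 1 constant per array, as found by comparing the deposited values. Spots marked non-uniform were dropped, each probe's spots averaged and divided by the array's median, values under 0.01 set to 0.01, and log2 taken. Groups were fitted over all 8 arrays with limma 3.58.1 in R 4.3.3, and the fit was checked on simulated data. A probe was tested where 1 of the 2 groups or both had it well above background on each of their arrays, p-values were two-sided, and Benjamini-Hochberg adjustment ran over all probes tested within a comparison. Tables and figures used Python 3.11.15, pandas 2.3.3, numpy 2.4.6 and matplotlib 3.10.9. Symbols were matched to RefSeq for 87 probes, 44 by accession, 24 by symbol and 19 by synonym. Genes named are those called in any comparison, the brightest of each family and those of largest difference with the groups apart. Each was read from its brightest probe unless another probe is stated. Snrpa, Snrpb, Sfrs9 and the genes named from the wider list were added after their values were seen. The counts include 1 gene that is not reported here. The genes and lists were chosen with earlier results of these data known. Alternatives covered scaling, background correction, filters, spots, floor, probes per gene, arrays in the fit, the replicate number as a block and leaving out each array. The number of arrays limits the precision.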

Additional observations from a re-analysis of the deposited data

How the results depend on the processing

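Counts below are of splicing probes, medians are log2 differences, and signal over background limits the dim probes. Except with the study's replicate filter, probes over 2-fold were not counted among all probes in these settings. Such counts alone therefore do not set the splicing genes apart from other probes. In surviving minus dying neurons the count called by limma stayed at 0 in the planned settings apart from leaving out arrays, and the median stayed above 0. Normexp correction gave 31 probes over 2-fold with the groups apart, a median of 1.34 and 0.98 relative to all probes, and the brightest probe per gene gave 7 over 2-fold.

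For surviving minus sham, the 75th percentile gave 8 called, 25 over 2-fold and a median of -0.10, quantile normalization 4, 17 and -0.27, normexp 0 (limma, 4 at an unadjusted p under 0.05), 10 and 0.0076 with -0.085 relative to all probes, the series values as deposited 7, 20 and -0.0064, and the median of probes above background on all 8 arrays, chosen after seeing the data, 8, 21 and 0.086. The relative median was -0.16 with probes above background on all 4 arrays and -0.14 with no filter, which gave 11 called, each lower (12.6%, against 9.22% of all probes). The brightest probe gave 11 called, each lower (22.9%, against 12.9%). Only the 4 arrays compared gave 36, with 30 lower (39.5%, against 28.2%) and 6 higher (7.89%, against 17.0%).

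For dying minus sham, the 75th percentile gave a median of -0.78, quantile normalization 17 called and -0.70, normexp 0 called (limma, 7 at an unadjusted p under 0.05), 32 over 2-fold and -1.20, the deposited series values 31 over 2-fold and -0.67, and the all-array probes 24 called, 31 over 2-fold and -0.50. With probes above background on all 4 arrays the relative median was -0.57, and the brightest probe gave 33 over 2-fold. For sham minus naïve, medians were 0.22 (75th percentile), 0.11 (quantile), 1.05 with 0.48 relative to all probes and 8 over 2-fold (normexp), 0.18 (deposited series values) and 0.085 with 1 over 2-fold (all-array probes), and no filter gave 7 over 2-fold and 0.055 relative to all probes. The study's replicate filter left 1 probe over 2-fold in surviving minus dying (4.17% of those within it, against 10.5% of all probes), 24 lower in surviving minus sham (57.1%, against 41.4%), 14 lower in dying minus sham (60.9%, against 53.6%) and 2 higher in sham minus naïve (7.14%, against 5.37%). The causes of these changes were not tested.

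Arrays share a replicate number whose meaning the labels do not give. With the number as a replicate block (a paired fit), limma called 8 in surviving minus sham, 35 in dying minus sham and 0 in the other comparisons (10 and 2 at an unadjusted p under 0.05). The lower calls were 7 in surviving minus sham (9.21%, against 8.19% of all and 6.40% of RefSeq probes), near the share of all probes. In dying minus sham they were 32 (44.4%, against 26.7% and 29.3%). Same-numbered surviving and dying arrays deviated with a correlation of -0.19 over 15254 probes, and a crossed block, chosen after seeing the data and run for surviving minus dying alone, called 0 splicing probes and 0 of all probes by limma (9 splicing probes at an unadjusted p under 0.05).

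Leaving out each array in turn, with a lone array taken to have the spread of the other groups, gave 0 to 13 called, 12 to 29 over 2-fold, medians of 0.32 to 0.65 and relative medians of 0.19 to 0.63 in surviving minus dying. In surviving minus sham these ran from 2 to 25, 36 to 51, -1.04 to -0.78 and -0.61 to -0.45, in dying minus sham from 9 to 39, 49 to 54, -1.76 to -1.27 and -1.50 to -0.99, and in sham minus naïve from 0 to 0, 4 to 21, 0.17 to 0.79 and 0.077 to 0.23. Outside sham minus naïve, the count called among all probes was lowest and highest without the same arrays as that of the splicing probes. The ranges of called probes alone therefore do not set the splicing genes apart from other probes.

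Between surviving and dying neurons some differences near 0 turned sign. With quantile normalization the difference was -0.26 for Prpf38a, -0.14 for Sfrs5 A_44_P346491, -0.17 for Hnrpk A_44_P526060, -0.22 for Hnrpm and -0.26 for Snrp70. Normexp gave 0.20 for Prpf3 A_44_P480519, 1.28 for Sfrs10, 3.33 for Sfrs14, 1.35 for Hnrpu A_44_P254413, 1.29 for Hnrpu A_44_P496216, 1.56 for Snrp1c and 1.35 for Snrpd1. Sfrs14 was at 0.10 with the 75th percentile, 0.14 with the series values over the array median, 0.21 with them as deposited, 0.14 with non-uniform spots kept and 0.020 with the all-array probes, which gave -0.023 for Prpf38a and -0.0050 for Snrp70. Hnrpu A_44_P254413 was at 0.030 with the 75th percentile and 0.055 with the deposited series values. Without single arrays the lowest and highest were -0.71 and 0.45 for Prpf3, -0.86 and 0.076 for Prpf31, -0.22 and 0.24 for Prpf38a, -0.016 and 0.57 for Prpf4, -0.92 and 1.80 for Sf3b2, -0.60 and 0.29 for Sfrs10, -0.56 and 0.49 for Sfrs14, -0.32 and 0.62 for Sfrs5, -0.43 and 0.53 for Sfrs8, -0.010 and 0.24 for Hnrpk, -0.76 and 0.42 for Hnrpr A_44_P210235, -0.077 and 0.69 for Hnrpr A_44_P840829, -0.25 and 0.19 for Hnrpu A_44_P254413, -0.89 and 0.48 for Hnrpu A_44_P496216, -0.61 and 0.17 for Snrp1c, -0.43 and 0.49 for Snrp70 and -0.35 and 0.14 for Snrpd1.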
